A study of Mus musculus with 30 samples.

Results

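Spon2, Nrgn, Fam107a and Banp are 4 of the 55487 gene rows counted in 30 mouse hearts. They were chosen by their count levels, which shifted between groups of a cohort of C57Bl/6 mice given saline or an AAV9 vector. Their values in that cohort are therefore a description, with no test. A second cohort, of floxed and Cpt1a-deleted mice, took no part in the choice, and the tests come from it. All 4 were found by their GENCODE symbol, and all 4 passed the filter on low counts in both cohorts.

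Gene counts come from poly(A) RNA of hearts collected 8 weeks after surgery, either a sham operation or TAC (transverse aortic constriction), in which clipping the aorta makes the left ventricle pump against a higher pressure. The labels name clips of 0.016 or 0.018 inch without tying them to mice. The study lowered or added Cpt1a, a carnitine palmitoyltransferase that acts in mitochondrial fatty acid oxidation, to see what the gene does in an overloaded heart. The floxed cohort had 4 groups of 4 hearts. FF_sham and FF_TAC carried floxed Cpt1a alleles, and KO_sham and KO_TAC are labelled as cardiac-specific knockouts of Cpt1a, with no Cre driver named. The AAV9 cohort was C57Bl/6 throughout. PBS_sham and PBS_TAC (3 hearts each) received saline, and AAV_sham and AAV_TAC (4 hearts each) received AAV9.Cpt1a, a virus that carries Cpt1a behind a promoter named for cardiac troponin T. With saline as the control, an effect of the virus and an effect of the Cpt1a it carries cannot be told apart. Ages are not given in the labels.

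Total counts ran from 14839758 to 22070373 per library, and levels are given as CPM, which are counts scaled to a common library size by TMM within each cohort. The labels do not say that the hearts of a group are separate litters or surgery days, so a p-value measures the spread between these samples. Some libraries stood apart. Cpt1a was 37.8 to 52.6 CPM in FF_sham and 20.3 to 23.6 CPM in 3 of the KO_sham hearts. The library labelled KO_sham 2 had 46.2 CPM, within the FF_sham range. FF_TAC 2 and FF_TAC 3 had 20.3 and 16.2 CPM, against 48.8 and 33.9 CPM in FF_TAC 1 and 4. KO_TAC had 11.1 to 19.6 CPM. These 3 are named below as the libraries that went against their labels, by Cpt1a level alone. A floxed label sets no Cpt1a level after TAC. For FF_TAC 2 and 3, a fall with overload and a wrong label cannot be told apart. In the AAV9 cohort the Cpt1a counts did not set the vector groups apart: AAV_TAC had 44.8 to 62.6 CPM and PBS_TAC 40.2 to 61.5 CPM (log2 difference 0.05, SE 0.21), and AAV_sham had 56.3 to 88.3 CPM and PBS_sham 37.4 to 68.0 CPM (0.45, SE 0.22). The same 3 libraries and all 4 of KO_TAC held 1.40 to 51.1 CPM of summed haemoglobin transcripts, against 293.9 to 943 CPM in the other 23. The 4 KO_TAC hearts also had more of the 8 neuronal markers (51.4 to 146.3 CPM summed, against 17.9 to 33.9 in all other hearts), more of the 6 fibroblast markers (1367 to 1543 CPM, against 601 to 1284) and less of the 6 endothelial markers (443 to 640 CPM, against 659 to 1399). With some overlap, they were high in the 6 atrial myocyte markers (4513 to 17709 CPM, against 19.8 to 6108). Smooth muscle and pericyte markers had a median of 814 CPM in KO_TAC, against 918 to 1108 in the other groups, also with overlap. PBS_sham 3 had 22223 CPM of the 6 cardiomyocyte markers, against 36620 to 56491 in the other 29 hearts, and 2433 CPM of the 7 smooth muscle and pericyte markers, against at most 1259. In tissue RNA of this kind, a change in the number of cells of a type and a change in marker RNA per cell cannot be told apart. A marker may also change in cells of another type.

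The 4 genes have unlike roles. Spon2 (spondin 2, or mindin) encodes a secreted matrix protein with a thrombospondin type 1 repeat, which binds integrins and bacterial surfaces and acts in innate immunity. Nrgn (neurogranin) encodes a small protein that holds calmodulin near the membrane and lets it go when calcium rises or protein kinase C phosphorylates it; it is best known from neurons and is also found in platelets. Fam107a encodes an actin-binding protein whose transcript rises with stress and glucocorticoids in the brain. Banp encodes a nuclear BEN-domain protein that binds a CGCG element in CpG island promoters and is a partner of p53.

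On GRCm38, Spon2 (ENSMUSG00000037379) lies on the minus strand of chromosome 5 from 33198184 to 33218455. Nrgn (ENSMUSG00000053310) lies on the minus strand of chromosome 9 from 37544492 to 37552904, and Fam107a (ENSMUSG00000021750) on the minus strand of chromosome 14 from 8296274 to 8318023. Banp (ENSMUSG00000025316) lies on the plus strand of chromosome 8 from 121949750 to 122029258. Banp shares 252 exon bases with Gm27011, a long noncoding RNA on the opposite strand, and since the strand setting of the counting is not given in the sources used here, its counts carry that uncertainty. The other 3 genes share no exon base with another gene.

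Promoter windows in RefSeq (GRCm38.p6) were found for Nrgn and Fam107a, and they are shown because Nrgn is the gene that differed in the floxed cohort and Fam107a has more than 1 start. Each run is the 250 bases before a RefSeq start, read on the minus strand, and capitals mark a CCAAT box (CCAAT on either strand, so ATTGG here). These starts lie inside the gene bounds given above. The Nrgn run thus overlaps its gene in part, and the Fam107a runs lie wholly within theirs. The first is chr9:37552746-37552995, the second chr14:8317608-8317857 and the third chr14:8309780-8310029.
Nrgn: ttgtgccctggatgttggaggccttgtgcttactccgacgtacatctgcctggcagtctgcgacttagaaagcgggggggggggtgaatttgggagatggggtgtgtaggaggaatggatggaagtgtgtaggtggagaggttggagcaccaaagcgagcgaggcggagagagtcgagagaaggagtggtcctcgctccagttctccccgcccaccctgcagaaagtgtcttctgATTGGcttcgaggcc
Fam107a, upstream start: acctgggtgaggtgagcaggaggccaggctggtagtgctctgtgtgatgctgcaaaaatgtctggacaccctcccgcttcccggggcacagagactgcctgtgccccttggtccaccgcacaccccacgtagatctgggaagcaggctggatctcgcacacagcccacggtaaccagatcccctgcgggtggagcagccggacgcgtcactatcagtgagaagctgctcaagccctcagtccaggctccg
Fam107a, downstream start: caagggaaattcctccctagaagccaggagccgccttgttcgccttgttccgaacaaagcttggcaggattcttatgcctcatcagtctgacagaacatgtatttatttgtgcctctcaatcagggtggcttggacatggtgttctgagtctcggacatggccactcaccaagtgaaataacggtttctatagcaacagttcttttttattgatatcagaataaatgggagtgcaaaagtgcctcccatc
The Nrgn window held 1 CCAAT box close to the RefSeq start, and neither Fam107a window held any. Of 32851 windows of 300 bases (250 before and 50 after a start), 37.4% held CCAAT on either strand. The E-box CACGTG, the element that CLOCK and BMAL1 bind, was in none of the windows of Nrgn and Fam107a and in 7.15% of all windows. CTCGCGAG, the core of the element that the Banp protein binds, was also in none of them and in 0.919% of all windows.

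Spon2 was low in PBS_TAC. It stood at 6.68, 8.69 and 6.06 CPM in the 3 PBS_sham hearts and at 1.46, 1.90 and 1.27 CPM in the 3 PBS_TAC hearts. With the vector it was 5.49, 8.88, 3.80 and 8.17 CPM in AAV_sham and 8.39, 9.21, 7.57 and 7.53 CPM in AAV_TAC. All 3 PBS_TAC hearts lay below every other heart of the AAV9 cohort, which 0.362% of the genes tested in that cohort did. The log2 difference of PBS_TAC from PBS_sham was -2.21 (SE 0.30), that of AAV_TAC from PBS_TAC was 2.40 (SE 0.29; 4.19% of genes lay wholly higher there), and that of AAV_TAC from AAV_sham was 0.31 (SE 0.23). These comparisons share hearts, and the gene was picked for them.

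In the floxed cohort the level of Spon2 varied widely within groups. FF_sham had 5.43, 4.79, 8.98 and 5.91 CPM, and FF_TAC had 5.58, 2.23, 1.65 and 1.82 CPM. Of the FF_TAC hearts, 3 were thus below all FF_sham hearts, while FF_TAC 1 lay within their range. The low hearts include FF_TAC 2 and 3, the libraries that went against their labels. KO_sham had 11.3, 1.64, 6.60 and 9.50 CPM, and KO_TAC had 16, 5.55, 4.33 and 2.14 CPM. KO_sham 2 was the lowest heart of its group and KO_TAC 1 the highest of all 30. KO_TAC 1 also held 17709 CPM of atrial myocyte markers, 59.1 of Schwann cell markers and 100.6 of mesothelial markers. The other KO_TAC hearts had at most 8712, 12.4 and 19.6 CPM of these. These are sums over each list, and whether they mark more cells of these types was not tested. Their part in the Spon2 value of KO_TAC 1 was not tested either. Tests used the edgeR quasi-likelihood method, with p-values adjusted by Benjamini-Hochberg over 15596 genes. The log2 difference of FF_TAC from FF_sham was -1.15 (SE 0.61, 95% interval -2.45 to 0.15, adjusted p 0.490 by edgeR). It was -0.76 without the 3 libraries against their labels, -0.46 with a term for low haemoglobin and -1.73 without FF_TAC 1, and no alternative called it. No gene was called by edgeR in that comparison at an adjusted p under 0.05 (0%), while 1733 genes (11.1%) had an unadjusted p under 0.05, DESeq2 called 168 and limma voom 0. In KO_sham against FF_sham edgeR also called 0%, with 814 genes (5.22%) at an unadjusted p under 0.05, 3 called by DESeq2 and 30 by limma voom. The largest difference of Spon2 in this cohort was that of KO_TAC from FF_TAC, at 1.31 (SE 0.61, interval 0.01 to 2.61), and it also missed the threshold (adjusted p 0.157 by edgeR). Without FF_TAC 2, FF_TAC 3 and KO_sham 2 it was 0.91, without KO_TAC 1 alone it was 0.48, and with a term for low haemoglobin it was 2.17. Over its 27 alternatives the adjusted p ran from 0.0506 to 0.551, with 0 called. The difference of KO_TAC from KO_sham was -0.05 (SE 0.58), that of KO_sham from FF_sham was 0.22 (SE 0.59), and the knockout by TAC interaction stood at 1.10 (SE 0.84, adjusted p 0.583 by edgeR).

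**Figure D1:**
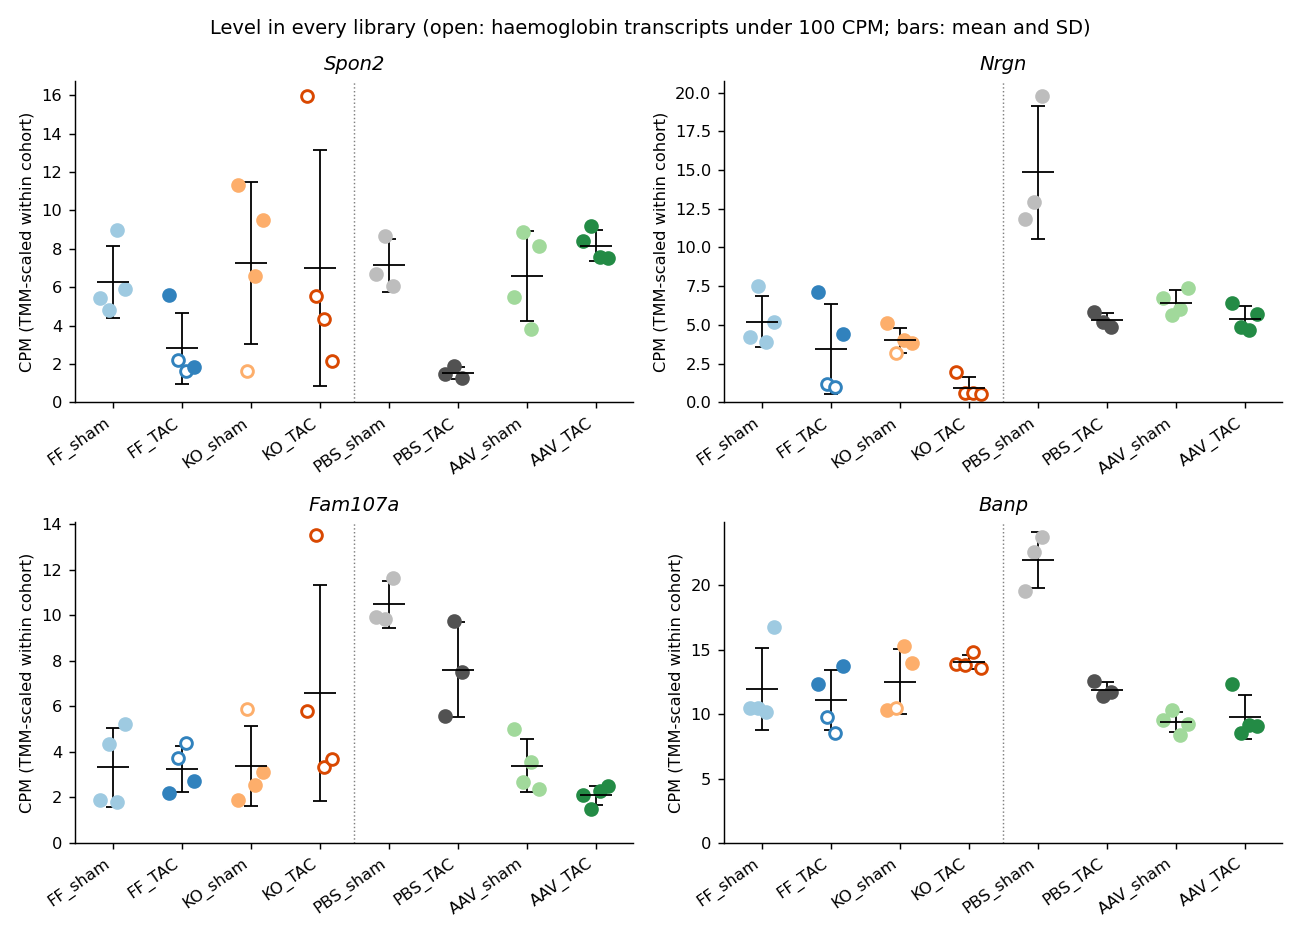
Level of Spon2, Nrgn, Fam107a and Banp in every library, in CPM scaled by TMM within each cohort, by group (floxed cohort left of the dotted line, AAV9 cohort right). Points are hearts, open where summed haemoglobin transcripts were under 100 CPM, and bars give the mean and SD. PBS_TAC is low for Spon2, PBS_sham is above all other AAV9 hearts for Nrgn, Fam107a and Banp, and KO_TAC is lowest for Nrgn.

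The genes most like Spon2 in pattern belong to the circadian clock. Among 15309 genes compared over the 30 hearts, on log2 CPM centred on each cohort's mean, the highest Pearson r with Spon2 was that of Clock (0.86), then Npas2 (0.84) and Arntl (0.79), which encode the activating partners of the clock. The most opposite gene was Ciart, a repressor of that pair, at -0.79. Within the 16 hearts of the floxed cohort alone, which played no part in picking Spon2, r was 0.90 with Clock, 0.80 with Npas2, 0.68 with Arntl and -0.71 with Ciart. After centring on group means, so that only differences between hearts of a group count, r was 0.74 with Clock, 0.70 with Npas2 and 0.73 with Arntl. Clock, Npas2, Arntl and Ciart were picked by their r over all 30 hearts, these 16 included. Their r in a subset or after centring is thus no independent look. The points share libraries and depth, and no p is attached to these values. Without the 2 hearts in which Spon2 lay farthest from its median, PBS_TAC 1 and PBS_TAC 3, r was 0.81 with Clock, 0.80 with Npas2 and 0.73 with Arntl. Of the other clock genes, Cry2 (-0.64), Bhlhe41 (-0.64), Dbp (-0.60), Per2 (-0.58) and Tef (-0.57) had negative values with Spon2, and Nr1d1 was near 0 (0.10).

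In the AAV9 groups that Spon2 was chosen on, Arntl and Ciart differed too. Arntl was 2.68 ± 0.68 CPM in PBS_TAC (SD, n = 3), against 9.46 ± 2.44 in PBS_sham (n = 3) and 16 ± 2.85 in AAV_TAC (n = 4). Ciart ran the other way, at 33.9 ± 1.35 CPM in PBS_TAC, 15.1 ± 3.95 in PBS_sham and 11 ± 3.60 in AAV_TAC. Differences between floxed groups tracked in some comparisons and not in others. FF_TAC differed from FF_sham by -1.15 for Spon2 and -0.87 for Arntl, and KO_TAC from FF_TAC by 1.31 and 1.09. The knockout by TAC interaction was 1.10 for Spon2 and 1.85 for Arntl. By contrast, KO_sham differed from FF_sham by 0.22 for Spon2 and -0.75 for Arntl, and KO_TAC from KO_sham by -0.05 and 0.98. None of these differences passed the test. Arntl shares 33 exon bases with the antisense gene Gm45355. Within KO_sham, where Spon2 was 1.64 CPM in KO_sham 2, Arntl ran from 1.21 to 11.4 CPM, and that lowest value was also the library KO_sham 2. The hour at which each heart was taken is not given in the labels, and the part of the clock genes in the Spon2 values was not tested.

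Beside Spon2, 22 genes that encode thrombospondin-repeat proteins and 5 that encode integrin chains were examined. By edgeR's test, 18 of the former were tested in KO_TAC against KO_sham, of which 4 rose and 3 fell, with a median log2 difference of 0.01, against 0.02 for all genes. Adamts2, which trims procollagen, rose by 0.97 (adjusted p 0.00111) and Adamtsl2, a matrix protein that binds fibrillin, by 2.43 (adjusted p 0.00372), while the guidance receptor ligand Sema5b fell by 1.83 (adjusted p 0.0064), all by edgeR. In that comparison 14.3% of all genes rose and 11.5% fell. Of the integrin chains, Itga5 of the fibronectin receptor rose in KO_TAC against KO_sham (1.53, adjusted p 0.00895 by edgeR), and Itga4 and Itgam rose in KO_TAC against FF_TAC (1.43 and 0.95, adjusted p 0.00839 and 0.0196). Spon1, the nearest relative of Spon2 on the list, was 26.7 ± 2.59 CPM in FF_sham and 33.3 ± 11.3 CPM in KO_TAC (SD, n = 4 each), and its differences in the floxed cohort did not pass the test.

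Nrgn was the member that differed in the floxed cohort, where it was lowest in the overloaded knockout hearts. FF_sham had 4.21, 7.51, 3.87 and 5.17 CPM, and FF_TAC had 7.12, 1.20, 0.98 and 4.42 CPM. KO_sham had 5.11, 3.16, 4 and 3.81 CPM, and KO_TAC had 1.97, 0.60, 0.61 and 0.54 CPM. The 4 KO_TAC hearts lay below all 4 KO_sham hearts, a pattern that 12% of the genes tested showed in that direction. They overlapped with FF_TAC, whose hearts split into a high pair (FF_TAC 1 and 4) and a low pair (FF_TAC 2 and 3, the libraries that went against their labels). The KO_TAC values rest on 40, 8, 11 and 9 counts.

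In the edgeR fit, Nrgn was lower in KO_TAC than in KO_sham, with a log2 difference of -2.07 (SE 0.57, 95% interval -3.29 to -0.86, adjusted p 0.0184). In that comparison 11.5% of all genes fell and 25.8% were called in either direction. It was also lower in KO_TAC than in FF_TAC, by -1.85 (SE 0.57, interval -3.07 to -0.63, adjusted p 0.0429), where 6.8% of all genes fell, 7.53% rose and 14.3% were called in either direction. The other differences were -0.59 for FF_TAC from FF_sham (SE 0.52, adjusted p 0.663) and -0.37 for KO_sham from FF_sham (SE 0.52, adjusted p 0.9997), both by edgeR. The former was 0.15 without the 3 libraries that went against their labels, and the latter 0.015 with a term for low haemoglobin, so neither kept its direction. The knockout by TAC interaction stood at -1.48 (SE 0.77, adjusted p 0.426 by edgeR), a term for which 0.0449% of all genes were called. Without the 3 libraries that went against their labels, the 2 differences of KO_TAC were -2.18 and -2.60 (adjusted p 0.00344 and 0.00192 by edgeR), and the interaction was -2.33 (adjusted p 0.0442), in a fit that called 5.06% of genes for the interaction. The adjusted p of the interaction ran from 0.0442 to 0.673 over its alternatives, with 1 of 24 called. The call against KO_sham was lost without KO_TAC 2 (adjusted p 0.0512) or KO_TAC 3 (0.0621). The call against FF_TAC was lost in 11 of 16 fits that each left out 1 heart, and held in the fits without KO_sham 2, KO_TAC 1, FF_sham 2, FF_TAC 2 or FF_TAC 3.

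The level of Nrgn followed the haemoglobin split. In the floxed cohort it was 0.54 to 3.16 CPM in the 7 hearts with haemoglobin transcripts under 100 CPM and 3.81 to 7.51 CPM in the other 9, with no overlap. The r of Nrgn with log2 haemoglobin CPM was 0.83 over those 16 hearts and -0.07 over the 14 hearts of the AAV9 cohort, none of which was low in haemoglobin. With a term for the split in the edgeR fit, the difference of KO_TAC from KO_sham was -1.0 (adjusted p 0.308) and that from FF_TAC was -0.79 (adjusted p 0.398). Over all alternatives the adjusted p ran from 0.00170 to 0.308 for the former and from 0.00192 to 0.939 for the latter. Among the haemoglobin-low hearts alone, KO_TAC differed from FF_TAC 2 and 3 by -0.23. KO_sham 2 was as low in haemoglobin as any heart (1.40 CPM) but kept 3.16 CPM of Nrgn. Since all 4 KO_TAC hearts were in the low set, the part of that split in the Nrgn calls cannot be told apart from the group.

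Marker sums of neurons and platelets, the cells in which Nrgn is best known, gave other values. The sum of the 8 neuronal markers was highest in KO_TAC, where Nrgn was lowest. Single markers are not given, so the sum may rest on few of them, and the number of neurons was not tested. Summed levels of the 10 platelet markers ran from 20.4 to 35.2 CPM in KO_TAC and from 14.7 to 35.2 CPM in all other hearts. In PBS_sham, where Nrgn was highest, neuronal markers were 24.3 to 26.5 CPM and platelet markers 19.7 to 35.2 CPM.

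The gene nearest to Nrgn moved with it. Vsig2, which encodes an immunoglobulin-domain membrane protein, lies 287 bases from Nrgn on the opposite strand, with the 3' ends of both genes facing each other. Its r with Nrgn over the 30 hearts was 0.90, rank 5 of 15309 genes. It was 0.93 in the floxed cohort, 0.79 in the AAV9 cohort, 0.80 after centring on group means and 0.59 over the 23 haemoglobin-high hearts. Vsig2 stood at 8.27, 1.99, 1.96 and 8.89 CPM in FF_TAC and at 4.23, 1.20, 0.56 and 1.19 CPM in KO_TAC. FF_TAC 2 and 3 were thus the low hearts for both genes, and KO_TAC 1 the highest of its group for both. Vsig2 was lower in KO_TAC than in KO_sham by -2.14 (SE 0.56, adjusted p 0.0147 by edgeR), and its difference from FF_TAC was -1.53 (SE 0.56, adjusted p 0.0780). The exons of the 2 genes do not overlap in the annotation, and reads that run past an annotated end were not examined. Siae, 2794 bases away on the other side, had an r of 0.46 with Nrgn.

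**Figure D2:**
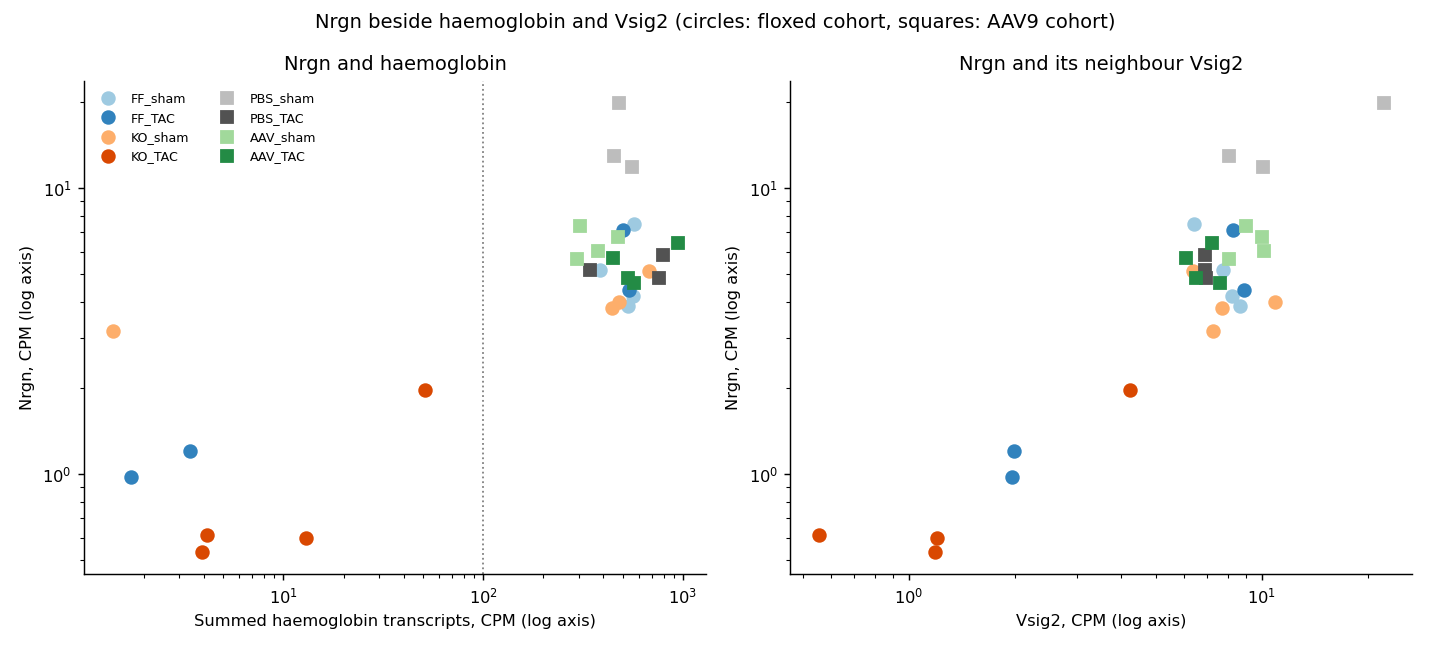
Nrgn level in each heart against summed haemoglobin transcripts (left; the dotted line marks 100 CPM) and against Vsig2, the neighbouring gene (right), all in CPM on log axes. The KO_TAC hearts and FF_TAC 2 and 3 are low in all 3 quantities, while KO_sham 2 is low in haemoglobin and has 7.29 CPM of Vsig2.

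Elsewhere in the genome, Adcy6 (r 0.92), Zhx3 (0.91) and Itpripl1 (0.91) were most like Nrgn over the 30 hearts, and Nars was most opposite (-0.93). Adcy6 encodes a main cardiac adenylyl cyclase, which makes cyclic AMP, and Nars encodes an asparaginyl-tRNA synthetase. Over the 23 haemoglobin-high hearts r was 0.85 for Adcy6, 0.81 for Zhx3, 0.69 for Itpripl1 and -0.76 for Nars. Adcy6 fell in KO_TAC against KO_sham by 0.84 on the log2 scale (adjusted p 0.0446 by edgeR), from 201 ± 21.0 to 113 ± 58.4 CPM (SD, n = 4 each). In the AAV9 cohort Adcy6 was 304 ± 72.4 CPM in PBS_sham (SD, n = 3), the group in which Nrgn was highest too. Adcy6 shares 605 exon bases with the antisense gene Gm29331, and Zhx3 shares 379 with Plcg1, so both are uncertain.

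In the AAV9 cohort Nrgn was high in PBS_sham, at 11.8, 12.9 and 19.8 CPM. It was 5.85, 5.18 and 4.87 CPM in PBS_TAC, 6.75, 5.63, 6.02 and 7.38 CPM in AAV_sham, and 6.44, 4.83, 4.67 and 5.71 CPM in AAV_TAC. The 3 PBS_sham hearts stood above the 11 others, as did those of 1.37% of the genes in that cohort, and the other 3 groups overlapped. The log2 difference was -1.49 (SE 0.20) for PBS_TAC from PBS_sham, -1.21 (SE 0.19) for AAV_sham from PBS_sham and 0.03 (SE 0.19) for AAV_TAC from PBS_TAC. PBS_sham 3, the library with few cardiomyocyte transcripts, had the highest value. Without it the first 2 differences were -1.22 and -0.94.

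Genes of calmodulin signalling and of protein kinase C, the partners of neurogranin, changed in both directions. Of 16 calmodulin-signalling genes tested in KO_TAC against KO_sham by edgeR, 4 rose and 2 fell, with a median of 0.16, where 14.3% of all genes rose and 11.5% fell. Rcan1, a calcineurin regulator and target, rose by 1.54 (adjusted p 0.00712), the kinase kinase Camkk2 by 0.77 (adjusted p 0.00779) and Calm2, a calmodulin gene, by 0.40 (adjusted p 0.0194), while the kinase Camk2a fell by 0.77 (adjusted p 0.0152), all by edgeR. Of 7 protein kinase C genes, Prkcd rose by 1.10 (adjusted p 0.00397) and Prkcq fell by 0.86 (adjusted p 0.0359). Pcp4, another small calmodulin-binding protein, was at most 0.57 CPM in any heart, and Gap43, a neuronal relative of neurogranin, was at most 0.88 CPM in all groups but KO_TAC, where it reached 3.15 CPM.

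Fam107a was high in the saline-treated hearts and low in the vector-treated ones. PBS_sham had 9.91, 9.85 and 11.6 CPM, and PBS_TAC had 5.55, 9.73 and 7.51 CPM. AAV_sham had 4.99, 2.69, 3.56 and 2.36 CPM, and AAV_TAC had 2.1, 1.5, 2.27 and 2.49 CPM. The 3 PBS_sham hearts lay above all 11 others, as did those of 1.37% of genes, and the PBS_TAC hearts lay above the AAV_TAC hearts. The log2 difference of AAV_sham from PBS_sham was -1.61 (SE 0.26), and in that direction 5.32% of genes had no overlap. The difference of AAV_TAC from PBS_TAC was -1.86 (SE 0.26), where the share was 4.28%. The differences with overload were smaller, at -0.46 (SE 0.27) in PBS hearts and -0.70 (SE 0.25) in AAV hearts, and the vector by TAC interaction stood at -0.24 (SE 0.37).

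In the floxed cohort, with no vector, Fam107a was level across 3 groups and spread in KO_TAC. FF_sham had 1.89, 4.36, 1.82 and 5.23 CPM, FF_TAC had 2.19, 3.73, 4.41 and 2.70 CPM, and KO_sham had 1.89, 5.89, 2.55 and 3.13 CPM. KO_TAC had 5.80, 13.5, 3.33 and 3.69 CPM. Only KO_TAC 2 exceeded all hearts of the other 3 groups, by a wide margin, and KO_TAC overlapped with each group. The log2 difference of KO_TAC from KO_sham was 0.97 (SE 0.48, 95% interval -0.06 to 1.99, adjusted p 0.145) and that from FF_TAC was 1.01 (SE 0.48, interval -0.02 to 2.03, adjusted p 0.170), both by edgeR. Without KO_TAC 2 they were 0.35 and 0.39. FF_TAC differed from FF_sham by -0.03 (interval -1.07 to 1.01) and KO_sham from FF_sham by 0.01 (interval -1.03 to 1.05), so changes of up to about 1 on the log2 scale could not be told from none. In this cohort the 7 haemoglobin-low hearts had 3.33 to 13.5 CPM and the 9 others 1.82 to 5.23 CPM.

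Map3k6 (r 0.79), Pthlh (0.78) and Per2 (0.76) were most like Fam107a over the 30 hearts. Map3k6 encodes a stress-activated kinase, Pthlh the parathyroid hormone-related peptide, and Per2 a repressor of the clock. In the floxed cohort alone r was 0.68 for Map3k6, 0.83 for Pthlh and 0.48 for Per2, and in the AAV9 cohort, which chose Fam107a, it was 0.93, 0.76 and 0.91. Centring on group means gave 0.63 for Map3k6, 0.68 for Pthlh and 0.62 for Per2. Per2 was 47.4 ± 23.9 CPM in PBS_sham and 42.0 ± 0.32 in PBS_TAC (SD, n = 3 each), against 19.4 ± 4.22 in AAV_sham and 7.53 ± 2.80 in AAV_TAC (n = 4 each), the order of groups that Fam107a, chosen in this cohort, also had. Among floxed groups the orders differed: Per2 was 21.3 ± 19.9 CPM in KO_sham and 13.7 ± 4.54 CPM in KO_TAC (log2 difference -0.63), where that of Fam107a was 0.97. Map3k6 rose in KO_TAC against KO_sham (log2 difference 1.43, adjusted p 0.0140 by edgeR), from 10.0 ± 3.21 to 26.9 ± 6.25 CPM. Pthlh was at most 2.59 CPM in any heart, so its r rests on few counts.

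Of the genes known to respond to glucocorticoids, as Fam107a does in the brain, Fkbp5 and Tsc22d3 had higher means in saline than in vector hearts, with some overlap between single hearts. They were picked from the list after their values were seen. Over all 20 listed genes, 3 had a positive log2 difference of AAV_sham from PBS_sham (median -0.29) and 6 one of AAV_TAC from PBS_TAC (median -0.27), and the medians of all genes were -0.03 and -0.01. Cdkn1a, at 0.65 in AAV_TAC against PBS_TAC, ran the other way. Fkbp5, a chaperone that dampens the glucocorticoid receptor, was 29.2 ± 11.3 CPM in PBS_sham and 31.3 ± 5.78 in PBS_TAC (SD, n = 3 each), against 14.9 ± 2.78 in AAV_sham and 17.5 ± 0.55 in AAV_TAC (n = 4 each). Tsc22d3, another target, was 137.5 ± 22.7, 109.0 ± 12.4, 102.3 ± 11.3 and 67.0 ± 6.22 CPM in the same order of groups. In the floxed cohort, 11 of the 20 listed genes rose and 1 fell in KO_TAC against KO_sham by edgeR, with a median of 1.08, and 5 rose and 1 fell against FF_TAC, with a median of 0.61. Of all genes, 14.3% rose and 11.5% fell in the former comparison and 7.53% and 6.8% in the latter. With the term for low haemoglobin, 0 of the 20 were called against KO_sham and 3 against FF_TAC. The metallothioneins Mt2 (2.62, adjusted p 0.00289) and Mt1 (1.40, adjusted p 0.00399), the NF-kappaB inhibitor Nfkbia (3.21, adjusted p 0.00733) and Ddit4 (1.14, adjusted p 0.00854) rose against KO_sham, while the receptor Nr3c1 fell by 0.31 (adjusted p 0.0177), all by edgeR. Tsc22d3 did not pass the test there (-0.16, adjusted p 0.583 by edgeR). Fam107b, the paralog of Fam107a, rose in KO_TAC against KO_sham (1.01, SE 0.31, adjusted p 0.0265 by edgeR), from 6.84 ± 1.54 to 13.7 ± 6.95 CPM.

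**Figure D3:**
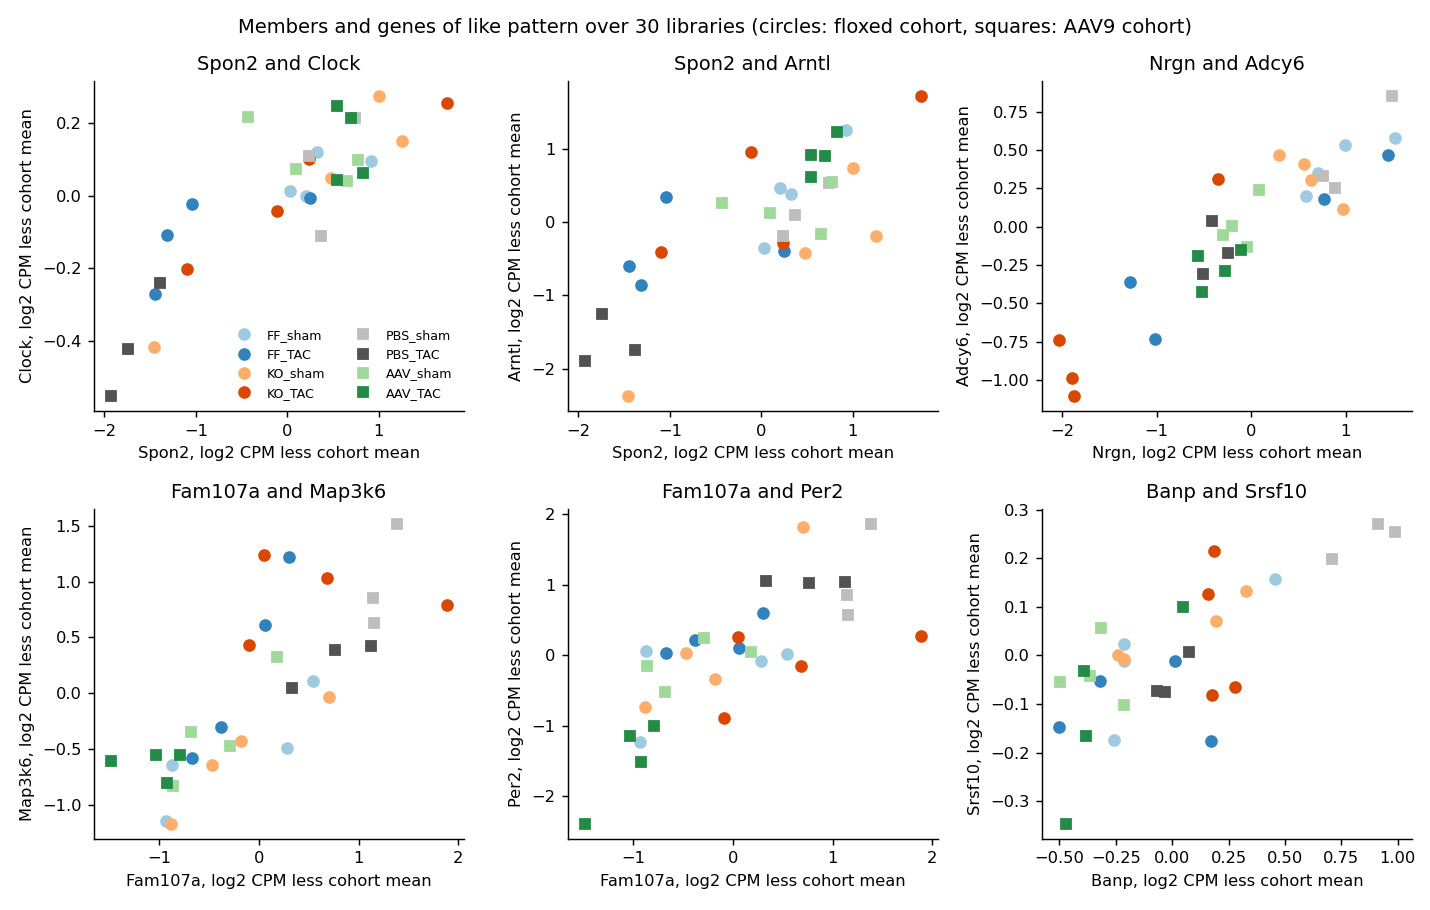
Spon2, Nrgn, Fam107a and Banp (horizontal axes) against genes of like pattern (vertical axes), each as log2 CPM less the mean of its cohort, in 30 hearts (circles: floxed cohort, squares: AAV9 cohort). The points rise together in each panel, closely for Nrgn with Adcy6 (r 0.92) and more loosely for Banp with Srsf10 (r 0.74).

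Banp stood out in a single group. PBS_sham had 19.5, 22.6 and 23.8 CPM, above every other heart of either cohort. Within the AAV9 cohort, on which Banp was picked, 1.37% of genes had all PBS_sham hearts above the others. No such share was taken over both cohorts. PBS_TAC had 12.6, 11.4 and 11.7 CPM, AAV_sham 9.57, 10.3, 8.41 and 9.26 CPM, and AAV_TAC 12.3, 8.57, 9.14 and 9.07 CPM. The log2 difference was -0.89 (SE 0.14) for PBS_TAC from PBS_sham, -1.23 (SE 0.13) for AAV_sham from PBS_sham, -0.28 (SE 0.14) for AAV_TAC from PBS_TAC and 0.06 (SE 0.13) for AAV_TAC from AAV_sham. Without PBS_sham 3, the first 2 were -0.82 and -1.17. Nrgn, Fam107a and Banp had a high PBS_sham group. All 4 members were lower in PBS_TAC than in PBS_sham with no overlap, a pattern of 6.57% of the genes in that comparison. The members were picked for shifts in this cohort, so these shared patterns come with the choice and are no separate result.

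PBS_sham also differed from the other AAV9 groups in markers of other cells. The 6 Schwann cell markers summed to 26.1, 62.9 and 60.4 CPM in its 3 hearts, against at most 28.6 CPM in the other 11. The 6 mesothelial markers summed to 12.5, 327.1 and 194.4 CPM, against at most 48.8, and the 6 adipocyte markers to 531, 873 and 1571 CPM, against at most 695. None of these markers was at 0 in all PBS_sham hearts. PBS_sham 1 was the lowest of the 3 hearts for all 3 lists. The part of these cells in the PBS_sham values was not tested.

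In the floxed cohort Banp did not differ between groups by the test. FF_sham had 10.5, 10.5, 10.2 and 16.7 CPM, FF_TAC 12.3, 9.76, 8.58 and 13.7 CPM, KO_sham 10.3, 10.5, 15.3 and 14 CPM, and KO_TAC 13.9, 13.8, 14.8 and 13.6 CPM. All 4 groups overlapped, and the KO_TAC hearts were the closest together. The largest of the 4 differences between pairs of groups was that of KO_TAC from FF_TAC, at 0.34 (SE 0.19, 95% interval -0.06 to 0.74, adjusted p 0.234 by edgeR). The difference of FF_TAC from FF_sham was -0.11 (interval -0.51 to 0.29), so a fall of the size seen between PBS_TAC and PBS_sham (-0.89) lay outside the interval for this contrast in the floxed cohort. KO_TAC differed from KO_sham by 0.16 (interval -0.24 to 0.56), and KO_sham from FF_sham by 0.07 (interval -0.33 to 0.46). The sham controls FF_sham and PBS_sham were of like level for Spon2 (6.28 and 7.14 CPM) but not for the other members. In the same order, Banp was 12.0 and 22 CPM, Nrgn 5.19 and 14.8 CPM, and Fam107a 3.32 and 10.5 CPM. The cohorts differ in genotype and injection, and these gaps were not tested.

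**Figure D4:**
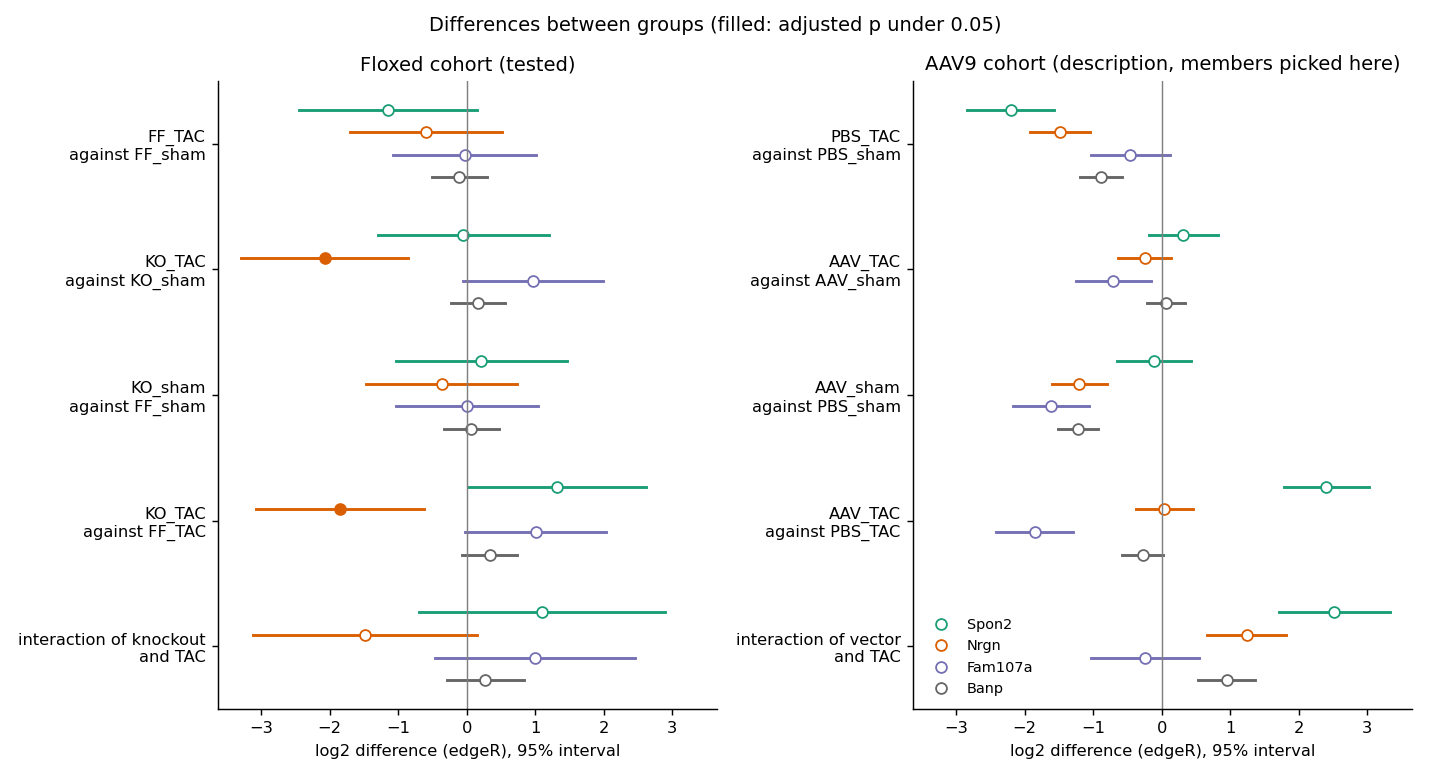
Log2 differences between groups for the 4 genes, with 95% intervals from edgeR, in the 5 comparisons of the floxed cohort (left, tested; filled points have an adjusted p under 0.05) and of the AAV9 cohort (right, a description, since the genes were picked there). Nrgn in KO_TAC against KO_sham (-2.07) and against FF_TAC (-1.85) carries the only filled points.

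The genes most like Banp, Srsf10 (r 0.74), Mst1r (0.74) and Rin3 (0.73), were less like it once group means were removed. After centring on group means r fell to 0.49, 0.23 and 0.22, and in the floxed cohort it was 0.53, 0.37 and 0.44. Without PBS_sham 2 and PBS_sham 3 it was 0.63, 0.51 and 0.67. Srsf10 encodes a splicing regulator of the SR family, Mst1r a receptor tyrosine kinase and Rin3 a Rab5 exchange factor.

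Genes whose promoter window holds CTCGCGAG were counted beside all genes with a window, with no test of the difference. There were 220 such genes among 11088 tested genes with a window in the floxed cohort. In KO_TAC against KO_sham, 30 of them rose and 25 fell by edgeR (13.6% and 11.4%, against 14.7% and 12.0% of all genes with a window). In KO_TAC against FF_TAC, 11 rose and 8 fell (5% and 3.64%, against 7.77% and 7.15%). Their median log2 differences were 0.02 and 0.03, against 0.01 and 0.03 for all genes with a window.

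Of 17 genes of the BEN family and the p53 response that Banp is tied to, 7 rose and 2 fell in KO_TAC against KO_sham by edgeR, with a median of 0.21, where 14.3% of all genes rose and 11.5% fell. Trp53 itself rose by 0.58 (adjusted p 0.00816), its target Cdkn1a by 2.76 (adjusted p 0.00975), Bend6 by 1.10 (adjusted p 0.0100) and Sesn2 by 1.27 (adjusted p 0.0107), while Bend3 fell by 0.62 (adjusted p 0.0118) and Ccng1 by 0.33 (adjusted p 0.0431). Btg3, an antiproliferative gene, rose by 0.84 (SE 0.22, adjusted p 0.0146 by edgeR), from 7.53 ± 1.40 to 13.4 ± 2.36 CPM (SD, n = 4 each). In KO_TAC against FF_TAC, 2 of the 17 rose and 2 fell, against 7.53% and 6.8% of all genes.

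The 20 clock genes and 9 hypertrophy genes were examined beside the members. Of the clock genes, 2 rose and 5 fell in KO_TAC against KO_sham by edgeR, with a median of -0.04, where 14.3% of all genes rose and 11.5% fell. Noct, a deadenylase-like phosphatase, rose by 2.49 (adjusted p 0.0144) and Nfil3 by 1.14 (adjusted p 0.0230), while the output factors Dbp, Hlf, Tef, Per3 and Nr1d2 fell by 1.01, 1.34, 0.79, 1.02 and 0.70. Clock, Npas2 and Arntl, the genes most like Spon2, did not pass the test there (0.00, 0.44 and 0.98). All 9 hypertrophy genes rose, among them the matrix gene Postn (2.87, adjusted p 0.00143 by edgeR) and Fhl1 (1.52, adjusted p 0.00175). All 4 KO_TAC hearts were low in haemoglobin, and with a term for that split the edgeR fit called 1.75% of all genes in KO_TAC against KO_sham. Under it, 1 thrombospondin-repeat gene and 1 hypertrophy gene were called, and none of the other 6 lists had a called gene. No gene of any of these lists was called in FF_TAC against FF_sham or in KO_sham against FF_sham, where edgeR called no gene at all. The median log2 difference of the 9 hypertrophy genes was 1.49 in the former, with 8 above 0. In the latter it was 0.16, with 6 above 0. The medians of all genes were -0.007 and 0.004.

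The 4 members moved largely apart from each other. Over the 30 hearts, centred on cohort means, the highest r between 2 members was 0.59, for Fam107a and Banp, which was 0.22 in the floxed cohort. Spon2 and Nrgn had 0.31, and Spon2 and Fam107a -0.32. Per kilobase of exon, a scale on which genes can be compared, Nrgn was the highest of the 4 in FF_sham, at 3.57 ± 1.13 CPM per kb, followed by Spon2 (2.13 ± 0.63), Banp (1.81 ± 0.48) and Fam107a (0.86 ± 0.45; SD, n = 4 each). In KO_TAC the order of levels was Spon2 (2.38 ± 2.09), Banp (2.12 ± 0.08), Fam107a (1.70 ± 1.22) and Nrgn (0.64 ± 0.48).

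Across the 8 groups, mean levels of Spon2 ordered as AAV_TAC, KO_sham, PBS_sham, KO_TAC, AAV_sham, FF_sham, FF_TAC and PBS_TAC, and each neighbouring pair overlapped. For Nrgn the order was PBS_sham, AAV_sham, AAV_TAC, PBS_TAC, FF_sham, KO_sham, FF_TAC and KO_TAC, and only the first step had no overlap. For Fam107a it was PBS_sham, PBS_TAC, KO_TAC, AAV_sham, KO_sham, FF_sham, FF_TAC and AAV_TAC, and for Banp it was PBS_sham, KO_TAC, KO_sham, FF_sham, PBS_TAC, FF_TAC, AAV_TAC and AAV_sham, again with a gap only below PBS_sham. Scaling all 30 libraries together in place of each cohort moved no member's CPM by more than 4.30%.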

How the data were processed

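Poly(A) RNA from 30 hearts was sequenced with a directional kit, per the labels. The authors deposited whole-number counts per Ensembl gene. HISAT2 2.1.0, featureCounts, Subread 1.5.1 and GRCm38 are named in the submitters' processing notes; the strand setting is not given in the sources used here. Symbols were matched for 55141 of 55487 identifiers (rows with none held 0.0192% of counts). Groups came from genotype and treatment labels; the titles of KO_TAC name both TAC and sham, and the treatment label was used.

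Each cohort was fitted by edgeR 4.0.16 (R 4.3.3), glmQLFit and glmQLFTest, with TMM, filterByExpr and 1 mean per group (15596 and 15745 genes). Adjusted p-values are Benjamini-Hochberg over all genes tested, with a threshold of 0.05, and SE is the log2 difference divided by the root of F. The fit was tested on simulated data. Log2 CPM for correlations used a prior count of 2. Alternatives used DESeq2 1.42.0, limma 3.58.1 voom, other filters and scalings, a replicate block, a haemoglobin term, and libraries left out. Leaving out the 3 libraries against their labels together, the haemoglobin-low fit and the neighbouring genes were added after seeing the data.

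Members and gene lists were chosen with earlier results of these data known. Named besides members were the 3 genes most like each, the genes most opposite to Spon2 and to Nrgn, and listed partners. From each list, at most 4 called genes were named, by smallest p. Bend3, Ccng1, Nr3c1, Fkbp5, Tsc22d3, Hlf, Tef and Per3 were named outside that rule, after their values were seen, as were the Spon2 correlations with further clock genes. No duplicate libraries were found: the lowest chi-square per degree of freedom over 42 pairs within groups was 6.80. Same-numbered libraries were not treated as pairs in the main fit. The r of their deviations ran from -0.40 to 0.46, with 15 of 43 pairs over 0.1. Libraries of unlike number were not compared in this way, so pairing was not settled. Intervals are 95% and cover the spread between libraries.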

Additional observations from a re-analysis of the deposited data

Results flagged for a closer look

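In 24 groups of 4 hearts (6 groups for each of 4 genes), 4 held a heart whose gap to its nearest neighbour exceeded Dixon's 95% critical value. Chance flags about 1 in 20 groups. Spon2 was 5.58 CPM in FF_TAC 1, against 1.65 to 2.23 CPM in the other 3 hearts. Nrgn was 1.97 CPM in KO_TAC 1, against 0.54 to 0.61 CPM. Banp was 16.7 CPM in FF_sham 4, against 10.2 to 10.5 CPM, and 12.3 CPM in AAV_TAC 1, against 8.57 to 9.14 CPM.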

How the results depend on the processing

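Of the member results in the floxed cohort, only Nrgn was called, in KO_TAC against KO_sham in 22 of 25 alternatives and against FF_TAC in 12 of 26. With the haemoglobin term its differences were -1.0 and -0.79, and the call against FF_TAC was also lost with only the groups compared (-1.87) and in the haemoglobin-low hearts alone (-0.23). Its interaction of knockout and TAC was called without the 3 libraries against their labels (-2.33). With 1 heart left out in turn, its differences ran from -2.79 to -1.89 and from -2.56 to -1.22, and its interaction from -2.20 to -0.85. DESeq2 gave no adjusted p for the members in KO_sham against FF_sham. The filter of a mean of at least 5 CPM left out Nrgn and Fam107a in the floxed cohort.

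Some uncalled differences changed sign, among them Nrgn in FF_TAC against FF_sham (-0.59), Nrgn in KO_sham against FF_sham (-0.37) and the Banp interaction (0.27); none was called before or after, and the cause was not tested. With the replicate block, Fam107a was 0.063 in FF_TAC against FF_sham and -0.028 in KO_sham against FF_sham; the block changed no call. With limma voom these were 0.019 and -0.11. With the haemoglobin term, Fam107a in KO_sham against FF_sham was -0.32, Nrgn there 0.015, Banp in FF_TAC against FF_sham 0.085 and Spon2 in KO_TAC against KO_sham 1.33. In haemoglobin-high hearts alone, Nrgn in FF_TAC against FF_sham was 0.15, Banp 0.13, and Fam107a in KO_sham against FF_sham -0.40. Without the 3 libraries these were 0.15, 0.12 and -0.40, and the Banp interaction was -0.044. With 1 heart left out, sign changes lay in the ranges -0.23 to 0.090 (Banp, FF_TAC against FF_sham), -0.049 to 0.27 (Banp, KO_sham against FF_sham), -0.24 to 0.26 and -0.40 to 0.30 (Fam107a, the same 2), -0.082 to 0.54 (Spon2, KO_sham against FF_sham) and -0.88 to 0.24 (Spon2, KO_TAC against KO_sham).

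With the haemoglobin term, called genes in KO_TAC against KO_sham (1.75% of all) fell to 1 thrombospondin-repeat, 1 hypertrophy and 2 motif genes, and 0 of the integrin, calmodulin, protein kinase C, glucocorticoid, BEN and clock lists. Against FF_TAC (7.23% of all) they numbered 3 glucocorticoid, 2 BEN, 2 hypertrophy, 9 motif and 0 calmodulin and clock genes. Without the 3 libraries, calls against FF_TAC (22.4% of all) numbered 5 thrombospondin-repeat, 9 BEN, 8 clock and 45 motif genes. Interaction calls in that fit (5.06% of all) were 2 thrombospondin-repeat, 1 integrin, 2 calmodulin and 1 protein kinase C gene. They further held 5 glucocorticoid, 1 BEN, 2 clock, 2 hypertrophy and 7 motif genes. In the main fit these lists held, in the same order, 18, 5, 16, 7, 20, 17, 20, 9 and 220 tested genes. In the AAV9 cohort the vector by TAC interaction of Nrgn moved from 1.24 to 0.98 without PBS_sham 3. Over all genes, limma voom called 8336 in KO_TAC against KO_sham, 6002 against FF_TAC and 2930 for the interaction, and DESeq2 4812, 3058 and 377, against 4031, 2235 and 7 by edgeR. Low counts limit Nrgn in KO_TAC.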

Other observations

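The genes next to the other members had values of their own. Slc7a5, which encodes the light chain of a large neutral amino acid transporter, lies 42056 bases from Banp. It rose in KO_TAC against KO_sham by 1.97 on the log2 scale (SE 0.40, adjusted p 0.00458 by edgeR), from 5.25 ± 0.68 to 20.5 ± 9.91 CPM (SD, n = 4 each), while Banp differed there by 0.16. Its r with Banp over the 30 hearts was -0.08. On the far side of Banp, Zfpm1, a cofactor of GATA factors, differed by -0.01. Next to Spon2, the corepressor gene Ctbp1 (29268 bases away) had an r of -0.04 with it and differed by -0.11 in KO_TAC against KO_sham. Next to Fam107a, 4930452B06Rik had an r of -0.56 with it over the 30 hearts, and the peroxisomal oxidase Acox2 one of -0.08. These neighbours were chosen by position after the likeness of Vsig2 to Nrgn had been seen.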
